A study of Mus musculus with 16 samples.

Results

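The core of the Hippo pathway was examined in mouse liver through 10 listed genes: the kinase genes Stk3 and Stk4, their adaptor Sav1, the kinase genes Lats1 and Lats2, their activators Mob1a and Mob1b, the upstream regulator Nf2, and the co-activator genes Yap1 and Wwtr1. A member was taken from the array's probe sets whose annotation names that gene alone, which gave 1 probe set each for 9 of the 10 genes. Stk3 has no probe set listed in the annotation used here and was not analysed. The 9 genes stand among 13152 genes tested, of 19938 genes with a probe set of their own. All 9 passed the filter on dim probe sets, for which 4 or more arrays had to show the probe set at or above the 40th percentile of that array.

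RNA of whole liver came from mice of strain 129 in 4 genotypes with 4 samples each: wild type, Rassf1a-/-, Sav1+/-, and mice with both changes (Rassf1a-/- Sav1+/-, called the double genotype here). The Sav1+/- genotypes keep 1 Sav1 copy. The labels give no sex, age, treatment or batch, do not state that replicates come from different animals, and do not say how the alleles were made or whether they act in liver cells alone. All p-values therefore measure the spread between these samples, which may in part be technical. Values are log2 signals of a probe set, and n is 4 arrays per genotype except in fits that leave arrays out.

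In the Hippo pathway the kinases MST2 (Stk3) and MST1 (Stk4), bound to the scaffold SAV1, activate the kinases LATS1 and LATS2 together with MOB1A and MOB1B. NF2, also called merlin, recruits LATS to the cell membrane, and the RASSF proteins bind MST kinases through a shared helical domain. Active LATS phosphorylates the co-activators YAP (Yap1) and TAZ (Wwtr1), which keeps them out of the nucleus and away from their TEAD partners. In the liver this cascade is known for limiting organ size and tumour growth. Loss of some of the genes that restrain YAP and TAZ enlarges the mouse liver.

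Since YAP and TAZ act on DNA through TEAD factors, the RefSeq promoter windows of the members (build GRCm38.p6, 250 bases before to 50 after a transcription start) were searched for the core TEAD motif GGAATG on both strands, where the reverse strand reads CATTCC. All 9 measured members have a window there, and Stk3 has none. The motif was present for 5 of the 9 members, and 16.6% of the 27025 genes in the table held it in a window of that length. The matches are shown because they lie in the gene that was targeted (Sav1), in both co-activator genes, in Lats2, which is itself a known YAP target, and in Mob1a. Each stretch reads along the gene's own strand with the motif in capitals:
Sav1: cggctttcccagCATTCCcagcggcgcggg
Lats2: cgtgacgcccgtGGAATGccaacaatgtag
Mob1a: tggccagaatagCATTCCtttaggagaaga
Yap1: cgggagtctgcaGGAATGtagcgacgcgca
Wwtr1: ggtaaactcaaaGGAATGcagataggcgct
These stretches lie at chr12:69987091-69987120 (minus strand) for Sav1, chr14:57746102-57746131 (minus) for Lats2, chr6:83325818-83325847 (plus) for Mob1a, chr9:8004720-8004749 (minus) for Yap1 and chr3:57576029-57576058 (minus) for Wwtr1. The Lats2 match lies just after a start site and the others before one. A match of these letters is a description of the sequence and shows no binding.

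Across the 16 arrays the median over all probe sets lay between 7.20 and 7.51, and the level of the dimness filter between 7.16 and 7.44. Transcripts of the Y chromosome (Uty, Kdm5d and Eif2s3y) averaged above Xist in 5 arrays, of which 0 were wild type, 1 was Rassf1a-/-, 2 were Sav1+/- and 2 were of the double genotype. All 5 listed hepatocyte markers, Alb among them, were measured, with a mean of 13.4 to 13.7 in every array. Means of 4 measured cholangiocyte markers (6.72 to 7.61) and of 5 lymphocyte markers (6.08 to 7.33) lay near the filter level. In bulk tissue, fewer cells of a type and less RNA per cell cannot be told apart. The least alike arrays of a genotype were those of Sav1+/- livers, where replicate 1 and replicate 2 each correlated with the others of the genotype at a median Pearson r of 0.899 across genes, against 0.976 to 0.978 for wild-type arrays.

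Sav1 was the member that changed. Its log2 signal was 8.55, 8.37, 8.61 and 8.60 in the wild-type arrays and 8.68, 8.46, 8.54 and 8.78 in the Rassf1a-/- arrays. In Sav1+/- arrays it read 7.60, 8.17, 7.38 and 7.40, and in the double genotype 7.63, 7.73, 7.30 and 7.96. All 8 arrays with 1 Sav1 copy lay below all 8 arrays with both, a separation in either direction seen for 29 of 13152 genes (0.22%), the nearest pair being Sav1+/- replicate 2 at 8.17 and wild-type replicate 2 at 8.37. Averaged over the Rassf1a states, Sav1 was lower in livers with 1 copy, with a log2 difference of -0.93 (SE 0.12, limma adjusted p = 0.0113 over all genes), which leaves a signal ratio of 0.525 with a 95% confidence interval of 0.439 to 0.629. On the log2 scale that interval runs from -1.19 to -0.67 and holds the value of -1 that a halved signal would give.

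Over all 13152 genes Sav1 had the smallest p of that averaged comparison, in which 3 genes were called lower (0.0228%) and 0 higher. The others were Wnt5b, which encodes a Wnt ligand (-0.83), and Atg4d, which encodes an autophagy protease (-0.53), each with an adjusted p of 0.048; both are named after their values were seen. In the double genotype Sav1 fell by 0.88 against wild type (SE 0.17, adjusted p = 0.023), one of 64 genes called lower (0.487%). When single arrays were left out in turn it passed in 10 of 16 fits, and failed without wild-type replicate 1, 3 or 4 or double-genotype replicate 1, 2 or 3 (differences of -0.98 to -0.76, adjusted p up to 0.082), whereas the averaged difference passed in 16 of 16. Its difference of -0.90 in Sav1+/- livers (SE 0.17, ratio 0.538, adjusted p = 0.11) did not pass. Neither did the difference of -0.96 between the double genotype and Rassf1a-/- (SE 0.17, ratio 0.514, adjusted p = 0.0613). The intervals of both ratios, 0.417 to 0.694 and 0.398 to 0.663, also contain a halved signal. The size of the fall is uncertain at the lower end, since 2 of the arrays with 1 copy lay under their own array's filter level, where log2 signals of an array can understate a change.

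**Figure D1:**
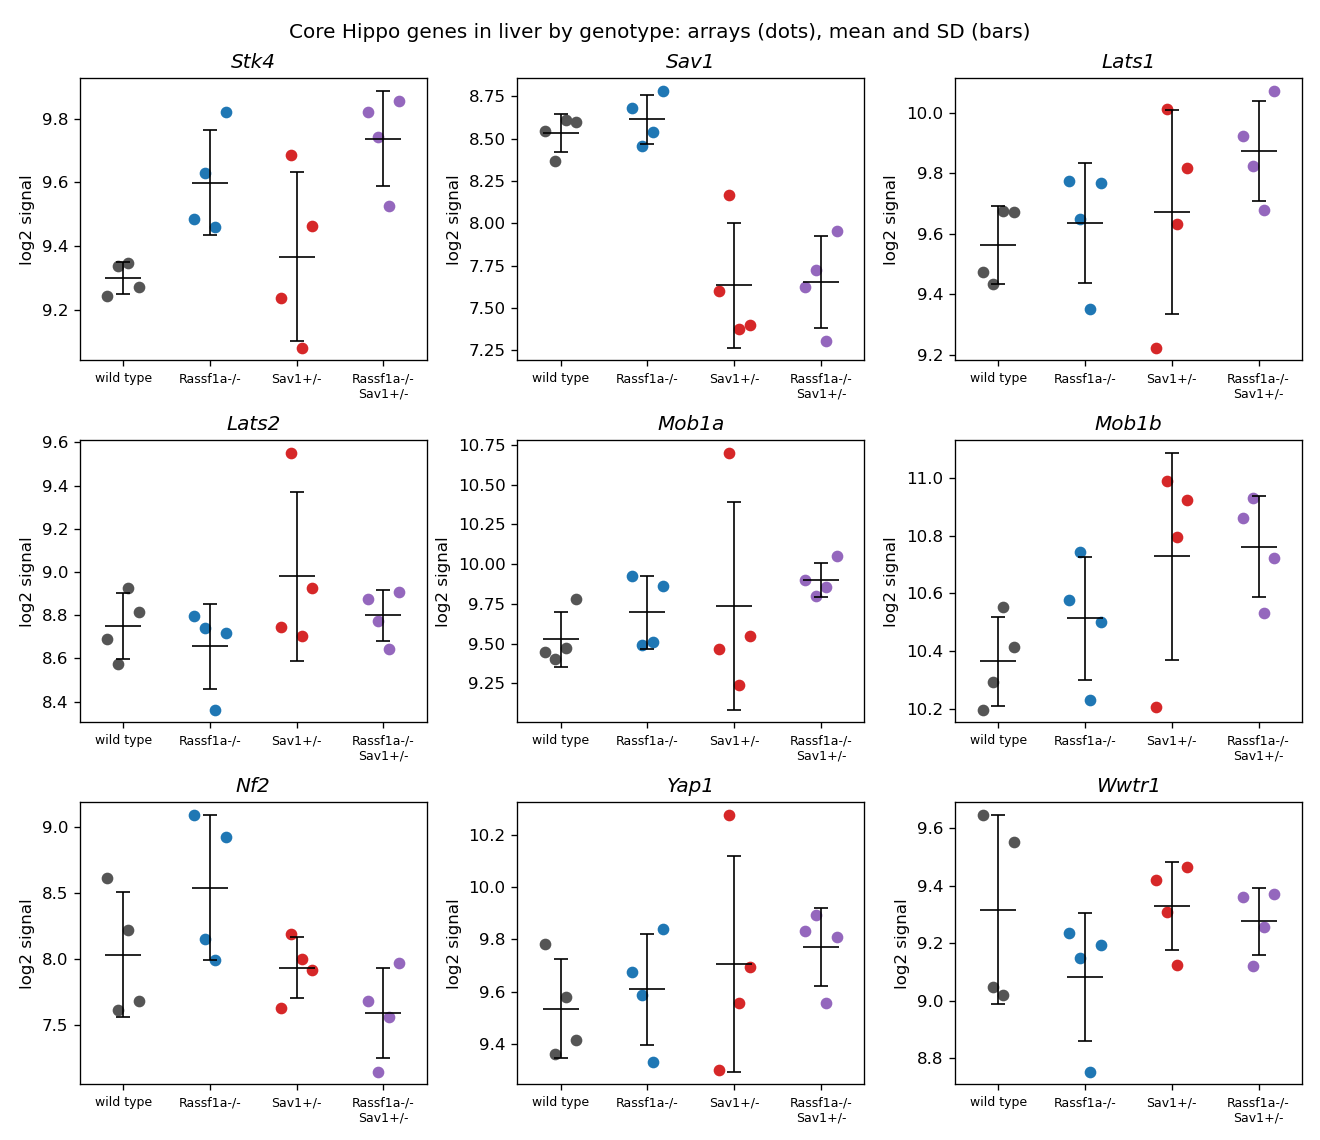
Log2 signal (vertical axis, arbitrary log2 units) of the 9 measured core Hippo genes in the 4 genotypes (horizontal axis). Dots are single arrays and bars give the mean and SD of 4 arrays. Sav1 separates the 8 arrays with 1 copy (7.30 to 8.17) from the 8 with both (8.37 to 8.78), while all genotypes overlap in the panels of Lats2, Mob1b, Yap1 and Wwtr1.

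Loss of Rassf1a was not accompanied by a change of Sav1 that passed the test. Group means were 8.53 ± 0.11 (SD) for wild type against 8.61 ± 0.14 for Rassf1a-/-, and 7.64 ± 0.37 for Sav1+/- against 7.65 ± 0.27 for the double genotype. The averaged Rassf1a effect on Sav1 was a ratio of 1.04 with an interval of 0.865 to 1.24. The interaction, which asks whether losing a Sav1 copy changes Sav1 differently without Rassf1a, was -0.07 (interval -0.59 to 0.45, adjusted p = 0.957). The order of the group means, Rassf1a-/- over wild type over the double genotype over Sav1+/-, therefore holds neighbours at its top and at its bottom that did not differ beyond their spread.

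Sex-linked transcripts moved in part with the Sav1 genotype, since 4 of the 8 arrays with 1 copy and 1 of the 8 with both had high Y-linked signal. Once the Y-linked mean entered the fit as a covariate, the averaged Sav1 difference was -0.84 (adjusted p = 0.0596). Without the 5 arrays it was also -0.84 (SE 0.16, adjusted p = 0.732), and neither value passed. With fewer arrays the SE was larger than the 0.12 of the reported fit. The double genotype against wild type stood at -0.76 with the covariate (adjusted p = 0.0803) and at -0.90 without the 5 arrays (adjusted p = 0.283). Sav1+/- livers against wild type went from -0.90 to -0.77 with the covariate (adjusted p = 0.299) and to -0.65 without the 5 arrays (adjusted p = 0.505). Of the Sav1+/- arrays that last fit keeps replicates 1 and 2 (Sav1 at 7.60 and 8.17), the least alike of the genotype. Leaving out replicate 2 alone gave -1.07. Within genotypes, the 5 arrays and the other 11 differed in Sav1 by -0.22 (SE 0.14, adjusted p = 0.588), and 0 of the 9 members passed that test, beside 4.73% of all genes. The member with the smallest p in that limma fit was Mob1b (+0.28, adjusted p = 0.366).

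**Figure D2:**
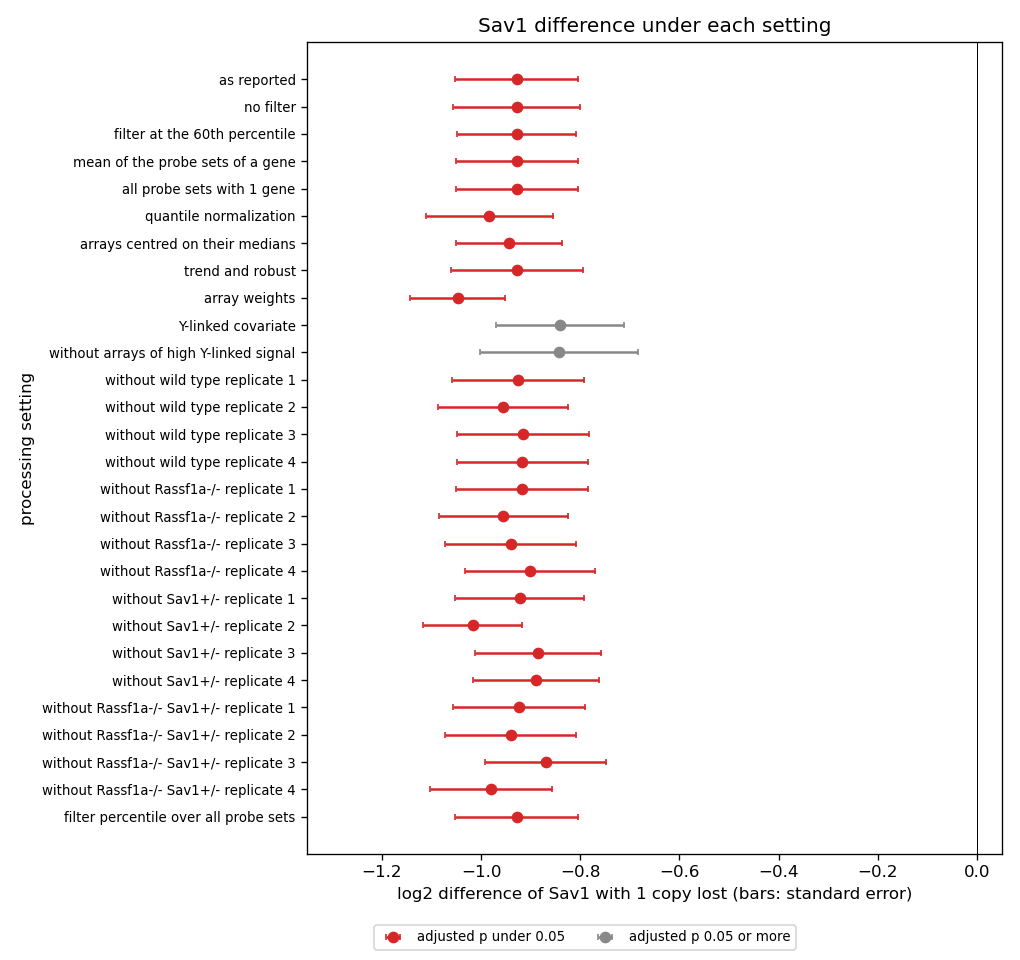
Difference of Sav1 on the log2 scale with 1 copy lost, averaged over the Rassf1a states (horizontal axis; points are estimates and bars standard errors), for the reported fit and 27 other settings (vertical axis). All estimates lie between -1.05 and -0.84, and the 2 settings that take account of Y-linked signal are those with an adjusted p of 0.05 or more.

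Stk4, which encodes the kinase MST1, was the member with the smallest p for the loss of Rassf1a, and it did not pass. Its log2 signal was 9.24, 9.34, 9.35 and 9.27 in wild-type arrays and 9.49, 9.63, 9.46 and 9.82 in Rassf1a-/- arrays. The double genotype read 9.82, 9.74, 9.52 and 9.86, and Sav1+/- livers 9.24, 9.69, 9.08 and 9.46. Every array without Rassf1a lay above all 4 wild-type arrays, but the Sav1+/- arrays spanned both ranges. No overlap with wild type was seen for 10.9% of all genes in Rassf1a-/- livers and 10.8% in the double genotype. The share of genes with both was not counted. The averaged Rassf1a difference was +0.33 (SE 0.10, 1.26-fold, interval 0.13 to 0.54, adjusted p = 0.0876).

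Against wild type Stk4 stood at +0.30 in Rassf1a-/- livers (SE 0.14, adjusted p = 0.476) and at +0.44 in the double genotype (SE 0.14, 1.35-fold, adjusted p = 0.165). Against Sav1+/- livers the double genotype stood at +0.37 (adjusted p = 0.221). Leaving out Sav1+/- replicate 2, the highest Stk4 array of its genotype, brought the averaged Rassf1a difference to +0.39 with an adjusted p of 0.0244, and weighting the arrays by their quality gave +0.38 (adjusted p = 0.0189). It was +0.26 when the 5 high-Y arrays were left out (adjusted p = 0.55), where the difference from Sav1+/- livers was +0.23, and +0.30 without Rassf1a-/- replicate 4 (adjusted p = 0.201). Leaving out the high-Y arrays kept Sav1+/- replicates 1 and 2, at 9.24 and 9.69. Stk4 is also abundant in lymphocytes, whose 5 markers had per-array means of 6.27 to 6.79 (wild type), 6.49 to 7.33 (Rassf1a-/-), 6.08 to 7.15 (Sav1+/-) and 6.52 to 7.23 (double genotype). Arntl, which encodes an activator of the circadian clock and is named after its values were seen, stood at +3.37 against wild type in Rassf1a-/- livers (adjusted p = 8.51e-05) and at +3.01 in the double genotype (adjusted p = 0.000425). The part of either in the Stk4 values was not tested.

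Nf2, which encodes merlin, varied most among the members. It read 8.61, 7.61, 8.22 and 7.68 in wild-type arrays, 9.09, 8.15, 7.99 and 8.93 in Rassf1a-/- arrays, 7.63, 8.18, 7.996 and 7.92 in Sav1+/- arrays, and 7.68, 7.14, 7.56 and 7.97 in the double genotype. The Rassf1a-/- arrays all lay above those of the double genotype, by a margin of 7.99 against 7.97 at the nearest pair, beside 9.82% of all genes whose arrays did not overlap between these genotypes. They overlapped with wild type and Sav1+/-. The spread of Nf2 within genotypes (residual SD 0.42) was the largest of the 9, against a median of 0.26 over all genes tested.

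Between the double genotype and Rassf1a-/- livers Nf2 differed by -0.95 (SE 0.27, 1.94-fold, interval -1.51 to -0.39), with an adjusted p of 0.118. The averaged Sav1 difference of Nf2 was -0.53 (SE 0.19, adjusted p = 0.204). The 2 Sav1 contrasts behind that average were -0.10 in mice with Rassf1a and -0.95 in mice without it, and the interaction was -0.86 (SE 0.38, unadjusted p = 0.0361, adjusted p = 0.499). Nf2 passed under array weights alone, in the first of these comparisons (-1.21, adjusted p = 0.00801) and in the averaged Sav1 difference (-0.67, adjusted p = 0.0323). Among 16 fits without 1 array its adjusted p in the first comparison ranged from 0.0602 to 0.434. One double-genotype array, replicate 2 at 7.14, lay below its filter level.

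Mob1b encodes a co-activator of the LATS kinases and is a close paralog of Mob1a. Its log2 signal was 10.20, 10.29, 10.55 and 10.41 in wild-type arrays and 10.58, 10.74, 10.23 and 10.50 in those of Rassf1a-/- livers. It was 10.20, 10.99, 10.80 and 10.92 in Sav1+/- arrays and 10.86, 10.93, 10.53 and 10.73 in the double genotype. Most arrays with 1 Sav1 copy were high, with Sav1+/- replicate 1 down at the lowest wild-type value, so that no genotype was separated from wild type. Mob1b stood at +0.36 in Sav1+/- livers (SE 0.17, adjusted p = 0.542) and at +0.40 in the double genotype (SE 0.17, adjusted p = 0.317). The averaged Sav1 difference was +0.31 (SE 0.12, 1.24-fold, interval 0.05 to 0.56, adjusted p = 0.247). The differences were smaller where Y-linked signal was taken into account: with it as a covariate Mob1b stood at +0.23 in Sav1+/- and +0.27 in double-genotype livers, and without the 5 high-Y arrays at +0.23 and +0.27. Leaving those arrays out kept Sav1+/- replicates 1 and 2, at 10.20 and 10.99. Without Sav1+/- replicate 1 the difference in Sav1+/- livers was +0.54 (adjusted p = 0.155). Mob1b passed under array weights alone, in the double genotype against wild type (+0.44, adjusted p = 0.0367) and in the averaged Sav1 difference (+0.36, adjusted p = 0.0282).

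Mob1a had means of 9.53 ± 0.17 (wild type), 9.70 ± 0.23 (Rassf1a-/-), 9.74 ± 0.65 (Sav1+/-) and 9.90 ± 0.11 (double genotype), each with its SD. The 4 arrays of the double genotype (9.80 to 10.1) lay above the 4 of wild type (9.40 to 9.78) by a narrow gap, with a difference of +0.37 (SE 0.23, interval -0.12 to 0.87, adjusted p = 0.523). The wide spread in Sav1+/- livers comes from replicate 2 at 10.7, since the other 3 arrays lay between 9.24 and 9.55. Mob1a and Mob1b have closely related sequences, so how far the probes of one also bind transcripts of the other is uncertain.

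The LATS kinase genes are the next step of the cascade. Lats1 had means of 9.56 ± 0.13 (wild type), 9.64 ± 0.20 (Rassf1a-/-), 9.67 ± 0.34 (Sav1+/-) and 9.87 ± 0.16 (double genotype). Its 4 double-genotype arrays (9.68 to 10.1) lay above the wild-type arrays (9.43 to 9.68) with almost no gap, and the difference was +0.31 (SE 0.16, interval -0.03 to 0.65, adjusted p = 0.421). Lats2 averaged 8.75 ± 0.15, 8.66 ± 0.20, 8.98 ± 0.39 and 8.80 ± 0.12 in the same order. Its groups overlapped in every pair of genotypes compared, and its difference from wild type had intervals of -0.46 to 0.26 in Rassf1a-/-, -0.13 to 0.59 in Sav1+/- and -0.31 to 0.41 in double-genotype livers.

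Yap1 and Wwtr1 encode the co-activators that the kinases restrain. Yap1 had means of 9.54 ± 0.19 (wild type), 9.61 ± 0.21 (Rassf1a-/-), 9.71 ± 0.41 (Sav1+/-) and 9.77 ± 0.15 (double genotype), and its largest difference from wild type was +0.24 in the double genotype (SE 0.18, interval -0.15 to 0.62, adjusted p = 0.625). Wwtr1 averaged 9.32 ± 0.33, 9.08 ± 0.22, 9.33 ± 0.15 and 9.28 ± 0.12 in the same order, with its largest difference in Rassf1a-/- livers at -0.23 (SE 0.16, interval -0.57 to 0.11, adjusted p = 0.624). Both genes overlapped between all genotypes compared. Their transcripts are the only layer measured here, whereas the cascade acts on YAP and TAZ by phosphorylation, which these arrays do not read.

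**Figure D3:**
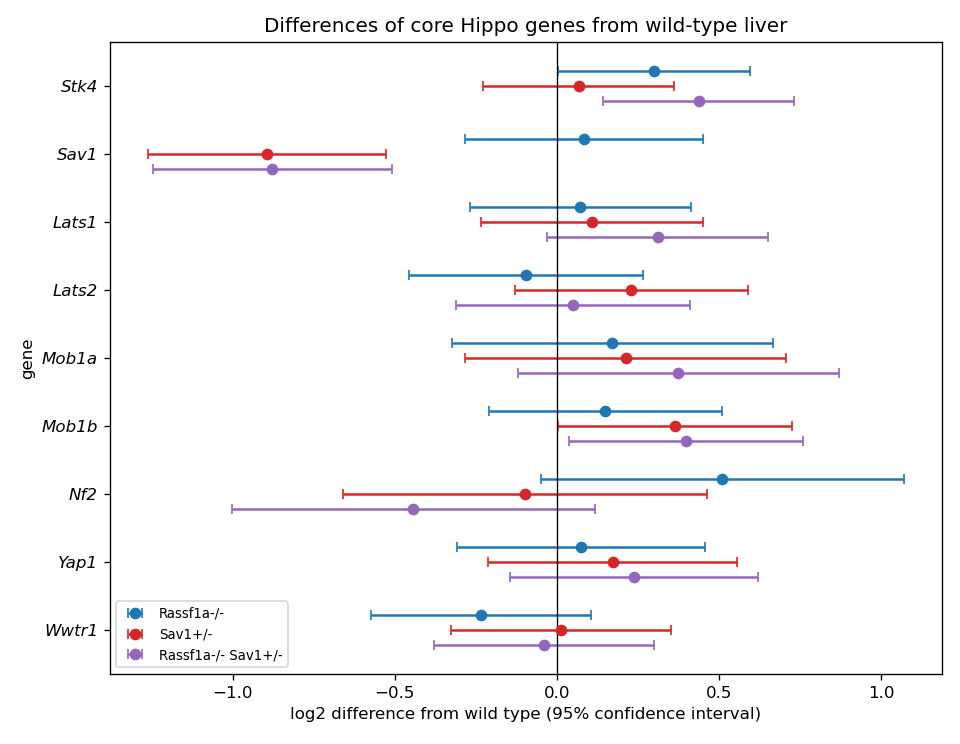
Log2 difference from wild type (horizontal axis) of each measured core Hippo gene (vertical axis) in Rassf1a-/-, Sav1+/- and double-genotype livers, with 95% confidence intervals of the fit over 16 arrays. Sav1 in the Sav1+/- genotypes (-0.90 and -0.88) stands apart from the other differences, which lie between -0.44 and +0.51.

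Over the set, 0 of the 9 members were called in Rassf1a-/- against wild-type livers (limma, adjusted p under 0.05; 1 had an unadjusted p under 0.05), beside 0.7% of all genes called and 10.4% by unadjusted p. In Sav1+/- livers 0 members were called and 2 had an unadjusted p under 0.05, beside 0% of all genes called and 9.15% with an unadjusted p under 0.05. The double genotype held 1 called member, Sav1, against wild type (3 by unadjusted p), beside 0.821% of all genes in either direction (13.6%). Between the double genotype and Rassf1a-/- livers 0 members passed (2 unadjusted), beside 0.0076% of all genes (14.7%), and between the double genotype and Sav1+/- livers 0 passed (1 unadjusted), beside 0.836% (15%). The averaged Rassf1a effect called 0 members (1 unadjusted) beside 2.23% of all genes (15.3%), and the averaged Sav1 effect called Sav1 (3 unadjusted) beside 0.0228% (14.8%). The interaction called 0 members (1 unadjusted) beside 0%, with 9.4% of all genes at an unadjusted p under 0.05.

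The comparisons with wild type share its 4 arrays. Arrays of the double genotype did not overlap with wild type in 4 of the 9 members (Stk4, Lats1 and Mob1a higher, Sav1 lower), beside 10.8% of all genes. In Rassf1a-/- livers this held for Stk4 alone, beside 10.9%, and in Sav1+/- livers for Sav1 alone, beside 4.68%. The median difference of the members was +0.24 in the double genotype, +0.08 in Rassf1a-/- and +0.11 in Sav1+/- livers, against medians of +0.05, -0.01 and -0.02 over all genes. When each array was centred on its median, the members' median in the double genotype was +0.18, against -0.009 over all genes. There 5 of the 9 members were positive in place of 6. Per-array means of 5 sinusoidal endothelial markers lay between 9.73 and 10.1 in the double genotype and between 9.41 and 9.78 in wild type, and those of 5 Kupffer cell markers between 9.71 and 10.7 and between 9.35 and 10.5. Means of 5 stellate cell markers lay between 9.93 and 10.6 and between 10.1 and 10.4. In none of these lists was a gene called in the double genotype against wild type, and their part in the members' values was not tested.

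**Figure D4:**
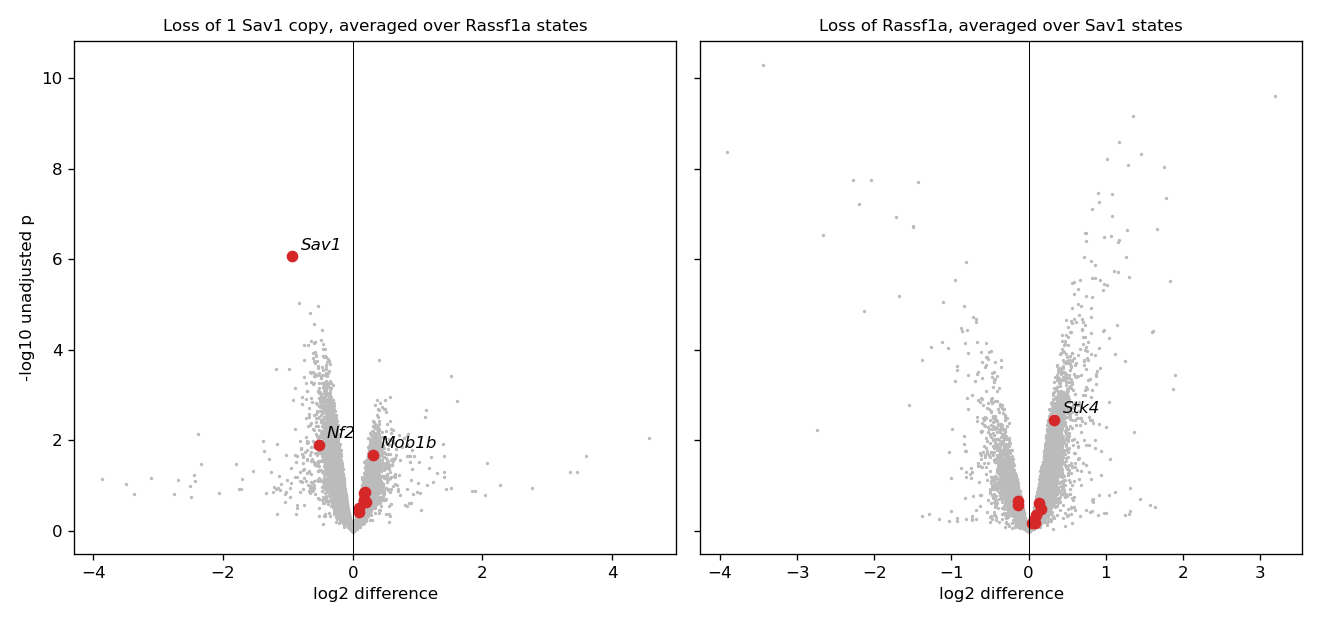
Log2 difference (horizontal axis) against -log10 of the unadjusted p (vertical axis) for 13152 genes (grey) and the 9 members (red), for the loss of 1 Sav1 copy averaged over Rassf1a states (left) and the loss of Rassf1a averaged over Sav1 states (right). Members with an unadjusted p under 0.05 are named, and Sav1 at -0.93 has the smallest p of all genes in the left panel.

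Single arrays moved several of the Sav1+/- means. Sav1+/- replicate 2 held the highest of the 16 values for 4 of the 9 members (Lats2, Mob1a, Mob1b and Yap1), beside 16.8% of all genes, and the highest Sav1 value among arrays with 1 copy. Without it, the Sav1+/- mean minus the wild-type mean went from +0.21 to -0.11 for Mob1a, from +0.17 to -0.02 for Yap1, from +0.11 to -0.01 for Lats1, from +0.07 to -0.04 for Stk4 and from +0.23 to +0.04 for Lats2. Mob1b went from +0.36 to +0.28. Sav1 itself went from -0.90 to -1.07 and then passed (adjusted p = 0.0275), and its SD over the remaining 3 arrays was 0.12 in place of 0.37. The same array had the highest mean of 5 Kupffer cell markers (10.97, against 9.10 to 10.7 elsewhere) and the lowest mean of cholangiocyte markers (6.72), and their part in the members' values was not tested. Sav1+/- replicate 1 held the lowest of the 16 values for 2 members, Lats1 and Yap1, and for 30.9% of all genes. Without it the difference from wild type was +0.26 for Lats1, +0.31 for Yap1, +0.11 for Stk4, +0.54 for Mob1b and -0.88 for Sav1, and the signs of the small differences of Nf2 (from -0.10 to +0.0027) and Wwtr1 (from +0.01 to -0.02) turned.

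Among 53 other genes of the Hippo pathway (upstream cadherins, MAP4K and TAO kinases, STRIPAK subunits, RASSF proteins, TEAD factors and others), 44 were tested and 0 were called in any of the 8 comparisons. Those with an unadjusted p under 0.05 numbered 0 in Rassf1a-/-, 3 in Sav1+/- and 6 in double-genotype livers against wild type, beside 10.4%, 9.15% and 13.6% of all genes. The smallest p in Sav1+/- livers belonged to Map4k5, a kinase gene whose family can activate LATS (+0.44 ± 0.16 SE, adjusted p = 0.385), followed by Csnk1e, a casein kinase gene (-0.42), and Rassf3 (+0.72). In the double genotype they belonged to Strn, which encodes the striatin subunit of a phosphatase complex that restrains MST kinases (+0.46 ± 0.17 SE, adjusted p = 0.235), to Tead3 (+0.38) and to Map4k5 (+0.36). In Rassf1a-/- livers the nearest were Sike1 (+0.29), Strn (+0.30) and Rassf5 (+0.32), with adjusted p of 0.532 to 0.598. Map4k5 is also among the neighbours of Sav1 described below, as is Frmd6. The part of the targeted locus in the Map4k5 values was not tested.

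Of 21 listed target genes of YAP and TAZ, 19 were tested and 0 were called in the 8 comparisons, with 2, 0 and 3 at an unadjusted p under 0.05 in Rassf1a-/-, Sav1+/- and double-genotype livers against wild type, where the shares of all genes were 10.4%, 9.15% and 13.6%. Ccn2, which encodes the matrix protein CTGF and is a widely used readout of YAP activity, stood at +0.81 in the double genotype (SE 0.36, adjusted p = 0.326), beside Asap1 (+0.44) and Crim1 (+0.42). In Rassf1a-/- livers Asap1 (+0.53, adjusted p = 0.279), Rbms3 (+0.47) and Tgfb2 (-0.24) had the smallest p. In Sav1+/- livers these were Nt5e (-1.52, SE 1.02), Myof (+0.42) and Ccn1 (+0.44), with adjusted p of 0.703 to 0.718. The list's median difference was +0.02, +0.02 and +0.19 in Rassf1a-/-, Sav1+/- and double-genotype livers, against -0.01, -0.02 and +0.05 over all genes. Amotl2 and Ptpn14 are on this list and among the other pathway genes above.

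The genes next to Sav1 on chromosome 12 give the setting of the targeted locus. The nearest tested genes on one side were Dmac2l, Cdkl1, Mir681, 4930512B01Rik and Map4k5, and on the other Pygl, Tmx1, Frmd6, Gm10457 and Psma3. They were placed by gene position. The probe set of Psma3 is numbered far from those of the other neighbours, and where its probes map was not checked. Of these 10 genes, 0 were called in any of the 8 comparisons. In the averaged Sav1 comparison 3 had an unadjusted p under 0.05, beside 14.8% of all genes: Dmac2l (-0.40, SE 0.17, adjusted p = 0.28), Map4k5 (+0.32, SE 0.11, adjusted p = 0.209) and Psma3 (-0.16, adjusted p = 0.318). The list's median there was +0.08, beside +0.02 over all genes and -0.93 for Sav1 itself.

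Over the 16 arrays the genes whose log2 signal followed Sav1 most closely were Fth1, the ferritin heavy chain gene (Pearson r 0.898, Spearman rho 0.844), Dusp28 (0.895 and 0.826) and Fkbp2 (0.891 and 0.876). They were picked for the highest r among all genes, the arrays share 4 genotypes, and the values are a description with no test. With 1 Sav1 copy lost, their averaged differences were -0.10, -0.60 and -0.43, with adjusted p of 0.477, 0.0773 and 0.0834.

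Rassf1, the other targeted gene, read between 6.94 and 7.42 in Rassf1a-/- arrays and between 7.48 and 7.71 in the double genotype, against 7.21 to 7.59 in wild type. Its probe set stands for the whole gene and not for the 1A isoform, so it does not check the Rassf1a labels. The Sav1 values, in contrast, lay on the side their labels state in all 16 arrays.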

How the data were processed

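Liver RNA was hybridised to 16 Affymetrix arrays. The authors deposited log2 signals per probe set from Affymetrix Expression Console (named in the submitters' processing notes). Its version, summarisation and scaling were not given in the sources used here. Of 35556 probe sets, 23410 have a gene in the platform annotation, and the 1621 that list several genes were left out. Symbols were updated by gene ID through the RefSeq table (GRCm38.p6). The filter percentile was taken over probe sets with 1 gene, and the highest-mean probe set stood for a gene. Genes were fitted with limma 3.58.1 (R 4.3.3; lmFit and eBayes, 4 genotype means, 12 residual degrees of freedom, two-sided), and p-values were adjusted by Benjamini-Hochberg over 13152 genes. The averaged effects are means of the 2 contrasts for a gene, and the interaction is their difference. Members, lists and tests were chosen with earlier results of these data known. By rule, members with an unadjusted p under 0.05 in any comparison are given array by array, and of the other lists the 3 genes with the smallest p in each comparison with wild type are named. Fits were run on simulated data with independent normal noise, whose SD for a gene was equal in all genotypes. That setting lacks the array-wide deviations seen in Sav1+/- livers, so it does not vouch for the p-values given here. Replicates are numbered in deposition order. The number of arrays limits the precision.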

Additional observations from a re-analysis of the deposited data

How the results depend on the processing

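No paired analysis was possible because replicate numbers are absent from the labels. Sav1 kept its lower direction with 1 copy in every setting run, in the 3 comparisons of genotypes with and without the second copy and in the averaged Sav1 effect. Its averaged Sav1 difference ranged from -1.02 to -0.87 without 1 array (called in 16 of 16 fits) and lost its call with the Y-linked covariate (-0.84) and without the 5 high-Y arrays (-0.84), where 0 members were called. In the double genotype it ranged from -0.98 to -0.76 without 1 array (called in 10 of 16 fits, the 6 failures leaving out wild-type replicate 1, 3 or 4 or double-genotype replicate 1, 2 or 3; adjusted p up to 0.082) and did not pass with no filter (-0.88), with the covariate (-0.76) or without the high-Y arrays (-0.90), which left 0 members called. Against wild type in Sav1+/- livers it ranged from -1.07 to -0.81 without 1 array and passed, as 1 member, with arrays centred on their medians (-0.90) and with array weights (-1.04). Against Rassf1a-/- it ranged from -1.06 to -0.84 and passed, as 1 member, at the 60th percentile filter (-0.96), with centred arrays (-0.99) and with trend and robust (-0.96), and with array weights (-1.05, 2 members). Without 1 array the count of members ranged from 0 to 1 in the double genotype against wild type (above), in Sav1+/- against wild type and in the averaged Rassf1a effect (1 without Sav1+/- replicate 2), and in the double genotype against Rassf1a-/- (1 without Sav1+/- replicate 2 or double-genotype replicate 4).

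Array weights gave the most calls: 3 members in the double genotype and in the averaged Sav1 effect, 1 in the averaged Rassf1a effect; 3 other pathway genes in the double genotype against wild type or Rassf1a-/- and in the averaged Rassf1a effect, and 6 in the averaged Sav1 effect; YAP and TAZ targets of 2 in Rassf1a-/-, 1 in the double genotype, 3 against Rassf1a-/- and 1 in either averaged effect; and neighbours of Sav1 of 1 in Rassf1a-/-, 2 in the double genotype, 2 against Rassf1a-/-, 1 in the averaged Rassf1a and 2 in the averaged Sav1 effect. Trend and robust called 1 neighbour in the averaged Rassf1a effect, where fits without 1 array gave 0 to 1 targets and 0 to 1 neighbours, with 1 of each without Sav1+/- replicate 2. The cause of these moves was not tested. Nf2 has no value at the 60th percentile filter, and averaged effects and the interaction have none with only the compared genotypes.

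Counts over all genes ranged widely: 54 to 898 in Rassf1a-/-, 0 to 7 in Sav1+/- and 6 to 1231 in double-genotype livers against wild type (92, 0 and 108 as reported), 0 to 1979 (1) and 0 to 479 (110) for the double genotype against Rassf1a-/- and Sav1+/-, 80 to 800 (293) and 0 to 1517 (3) for the averaged Rassf1a and Sav1 effects, and 0 to 1 (0) for the interaction. The filter percentile over all probe sets, chosen after seeing the data, changed no call of a member. Near the filter level the signal over background limits Sav1 and Nf2.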
